A study of Homo sapiens with 3 samples.

Results

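The genes described here are the zinc finger genes of human chromosome 19 that carry a ZNF number as their symbol, read in HCT116, an established line of colorectal cancer cells, with and without knockdown of PRMT1. PRMT1 is the arginine methyltransferase that places asymmetric dimethylation on arginine 3 of histone H4. RNA was hybridised to Agilent 60-base microarrays read in 1 colour, with 1 array each for cells labelled PRMT1-NC (NC, the control), PRMT1-KD1 (here KD1) and PRMT1-KD2 (here KD2). All 3 samples are HCT116 cells transfected with Lipofectamine 3000, and the labels describe synthetic siRNAs against PRMT1, 2 sequences in all, without saying which one made which knockdown. The study's methods also give siRNAs, while 1 sentence of its results speaks of short hairpin RNAs. Those methods name a second control, PRMT1-NC2, and only the 1 control array was analysed here. Each group is a single array of a single line, so no value has a replicate, no test was possible and no p-value is given.

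The array named 248 such genes, 247 of which had a usable probe. A gene was taken as a member when 1 or more of the 3 arrays read its brightest probe on chromosome 19 as well above background, which left 171 of 41749 gene names on the whole array. The set was chosen by measured values, because ZNF616 and ZNF17 were the members with the highest signal in both knockdowns relative to NC, so the values of that pair are a description only. At the edge of the detection rule, ZNF737 entered with a highest level of -2.85 and ZNF331 stayed out with a highest level of -2.45, since background is judged spot by spot. Levels are normalised log2 signals in which 0 is the 75th percentile of the array, and they can be compared between arrays for 1 probe but not between probes.

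Zinc finger proteins of this family bind DNA through repeated C2H2 fingers, each of which contacts a few bases, and many carry a KRAB box at the start of the protein. The KRAB box recruits the corepressor TRIM28, which in turn brings the H3K9 methyltransferase SETDB1 and HP1 proteins, and the complex silences retrotransposons and some genes. The genes arose by repeated local duplication and lie in tandem clusters along chromosome 19, and the clusters are themselves marked by H3K9 trimethylation.

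The probe of ZNF616 lies at chr19:52617661-52617720 of build hg19 on the minus strand, and that of ZNF17 at chr19:57932871-57932930 on the plus strand. The first 30 of the 60 bases of each are shown because these probes carry the largest differences among the members above background on all arrays, and none of their runs of 20 bases occurs in a probe of another gene.
ZNF616 probe: gccagcaccatgttttcatttaagccttca
ZNF17 probe: tggggaaagacttcacacagaaatctactc

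Probes of other members do share bases with each other. The codons of the linker TGEKP, which joins neighbouring fingers, were found on the probe strand in the probes of 5 of 171 members (2.92%) against 14 of 20050 measured genes (0.0698%). These probes are shown with the linker in capitals, since they lie on the repeated part of the protein.
ZNF253 probe: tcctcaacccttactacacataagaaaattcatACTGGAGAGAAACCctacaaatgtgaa
ZNF85 probe: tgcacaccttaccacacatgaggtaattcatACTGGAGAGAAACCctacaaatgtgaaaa
ZNF729 probe: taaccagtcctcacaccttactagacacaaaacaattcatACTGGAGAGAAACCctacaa
ZNF585B probe: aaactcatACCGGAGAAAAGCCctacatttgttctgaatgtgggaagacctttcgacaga
ZNF814 probe: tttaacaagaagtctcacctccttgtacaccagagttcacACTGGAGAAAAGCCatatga
A run of at least 20 bases was shared with a probe of another gene for 15 members, and how far this bears on their signals was not tested. Of these 15 members, 14 lie in 1 cluster, between ZNF101 and ZNF254, and the other is ZNF587B.

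PRMT1 itself checked the labels. Its level went from 6.01 on NC to 2.75 on KD1 and 1.45 on KD2, so 10.4% of the NC signal was left in KD1 and 4.24% in KD2. The arrays had 40.7 to 42.3% of usable probes well above background and no saturated spot outside the controls, and probes spotted at least 5 times had a median SD between spots of 0.041 to 0.053 log2 units. The epithelial markers EPCAM, CDH1, KRT8, KRT18, KRT19 and CDX2 were above background on every array, whereas VIL1 was on none. Among markers of other cells, PECAM1 was not above background, PTPRC was above it on KD2 only, and COL1A1 and DES were above it on all 3 arrays.

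Of the 171 members, 143 were above background on all 3 arrays, 16 on a pair of arrays and 12 on a single array. NC read 147 of them, KD1 163 and KD2 163. Among the 24 members not above background on NC, which entered the set through the knockdown arrays alone, 13 were above it on both of those, against 556 of 2004 such genes over the whole array. The same count was 9 of 17 for ZNF genes on other chromosomes and 30 of 69 for the other genes of chromosome 19, so it was not particular to the members. Over all gene names the count was 18046 for NC, 18399 for KD1 and 18755 for KD2. The change of a member that was dark on NC is a lower bound.

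Most members had a higher signal in each knockdown than in NC, 121 of 166 in KD1 (72.9%) and 117 of 165 in KD2 (70.9%). The shares in KD1 and KD2 were 46.4% and 45.3% of all genes, and 67.9% and 59.4% of ZNF genes on other chromosomes. Scaled bulk RNA gives this signal, so fewer cells expressing a gene and less RNA per cell cannot be told apart. In KD1, 53 of 166 members were at least 1.5-fold higher (31.9%), against 13.2% of 19231 genes tested, and 8 members were at least 1.5-fold lower (4.82%), against 12.8% of genes. In KD2, 49 of 165 members were higher (29.7%), against 9.56% of 19421 genes, and 8 were lower (4.85%), against 10.7% of genes. Of the higher members, 6 in KD1 and 8 in KD2 were not above background on NC and entered the set through the knockdown arrays. Among the 143 members above background on all 3 arrays, 47 were higher in KD1 (32.9%) and 40 in KD2 (28%). The shares among 17054 such genes were 12.5% and 8.24%. Of the same 143 members, 6 were lower in KD1 (4.2%, against 10.8%) and 7 in KD2 (4.9%, against 9.72%). The median log2 change of the members was 0.32 in KD1 and 0.32 in KD2, while the median of all genes was -0.04 and -0.05. Both comparisons use the same NC array, so a high or low reading on it moves both. Without ZNF616 and ZNF17 the counts higher over all members tested were 51 and 47. Higher members made up 86.9% of those past 1.5-fold in KD1 and 86% in KD2. With the arrays centred on spike-in probes, which moved the median of all genes up by 0.62 in KD1 and 0.29 in KD2, these shares were 98.4% and 98.9%, but there 48.9% of all genes were higher and 1.93% lower in KD1, and 22.4% higher and 3.64% lower in KD2. With median centring the share among members in KD2 was 75%. With normexp background correction, 32 members were higher in KD1 and 16 in KD2.

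Zinc finger genes elsewhere and the other genes of chromosome 19 are described by the same counts. Of the ZNF genes on other chromosomes, 58 of 215 (27%) were higher and 9 lower in KD1, with a median of 0.21, and 40 of 217 (18.4%) were higher and 8 lower in KD2, with a median of 0.09. The other genes of chromosome 19 leaned the opposite way. In KD1, 61 of 1007 of them were higher (6.06%) and 153 lower (15.2%), with a median of -0.19. In KD2, 81 of 1026 were higher (7.89%) and 143 lower (13.9%), with a median of -0.13. ZNF genes elsewhere thus lay between the members and all genes, nearer to the members in KD1.

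**Figure D1:**
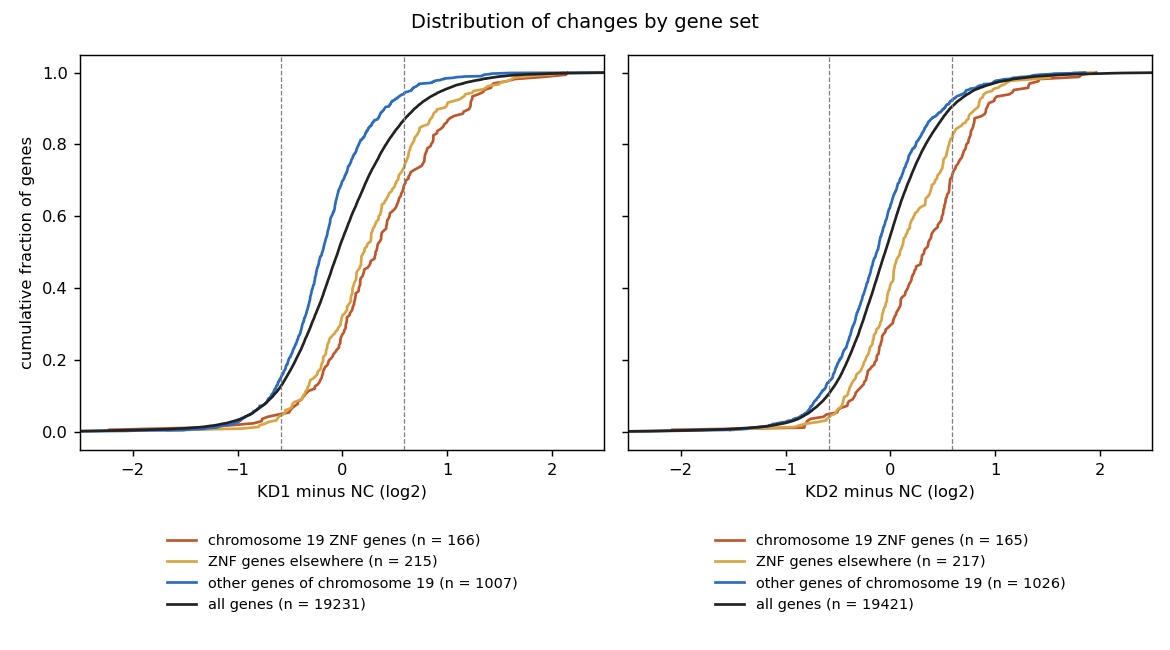
Cumulative fraction of genes (vertical axis) by log2 change against NC (horizontal axis) in KD1 (left) and KD2 (right), for the members, ZNF genes elsewhere, other genes of chromosome 19 and all genes tested. Dashed lines mark 1.5-fold. The curve of the members lies furthest to the right over most of its range, with a median of 0.32 in both panels, and that of the other genes of chromosome 19 furthest to the left, with medians of -0.19 and -0.13.

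The base composition of the probes moved with these changes. The median GC content was 41.7% for the probes of the members, 41.7% for ZNF genes elsewhere, 50% for the other genes of chromosome 19 and 45% for all measured genes. Among all genes with probes of up to 35% GC, the median change was 0.22 in KD1 and 0.07 in KD2, and among those over 50% it was -0.29 and -0.15. The members had medians of 0.80 and 0.66 in the first of these classes and of -0.34 and -0.25 in the second, so they exceeded all genes in the first class and not in the second. At up to 35% GC, 18 of 32 members were higher in KD1 (56.2%, against 25.5% of all genes in that class) and 19 of 33 in KD2 (57.6%, against 14.9%). At 41 to 45% GC, 18 of 61 members were higher in KD1 (29.5%, against 11.3%) and 17 of 62 in KD2 (27.4%, against 8.81%). Over 50% GC, none of the 19 members was higher in either knockdown, against 3.56% of all genes in that class in KD1 and 5.4% in KD2. Of these 19, 5 were lower in KD1 (26.3%, against 21.3%) and 3 in KD2 (15.8%, against 12.4%), near the shares of all genes. Across members, Spearman's rho between change and probe GC was -0.47 in KD1 (n = 166) and -0.46 in KD2 (n = 165), a description over genes of the same arrays.

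When the median change of genes of like GC content and brightness was subtracted, 50 members were past 1.5-fold higher in KD1 (30.1%) and 49 in KD2 (29.7%). This alternative was chosen after seeing the data. Over all genes the shares were 11.9% and 9.98%. The medians of the members were 0.28 and 0.36. Of the ZNF genes elsewhere, 42 of 215 (19.5%) were higher and 10 lower in KD1, with a median of 0.16. In KD2, 43 of 217 (19.8%) were higher and 4 lower, with a median of 0.14. The counts of lower members went from 8 to 4 in KD1 (2.41%) and from 8 to 5 in KD2 (3.03%), against 10.3% and 9.23% of all genes. The other genes of chromosome 19 moved to medians of -0.03 and -0.00, with 77 higher and 91 lower in KD1 and 101 higher and 100 lower in KD2.

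**Figure D2:**
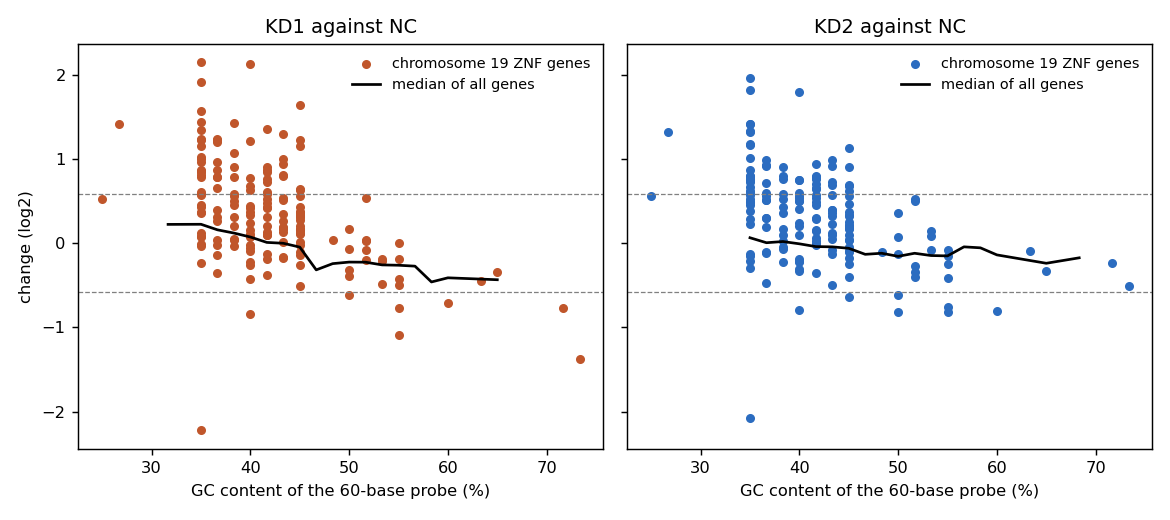
Log2 change against NC (vertical axis) by GC content of the 60-base probe (horizontal axis) for the members in KD1 (left) and KD2 (right). The black line is the median of all genes at each GC content held by at least 50 genes, and dashed lines mark 1.5-fold. Members with GC-poor probes lie above the line in most cases, and no member with a probe over 50% GC passes the upper dashed line.

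ZNF616 was the member with the highest mean change. NC read it at -0.35, KD1 at 1.80 and KD2 at 1.62, so both knockdown arrays were far above NC and close to each other. The log2 change was 2.15 ± 0.21 in KD1 (4.43-fold) and 1.96 ± 0.21 in KD2 (3.90-fold), where ± is the error that the extraction software assigns to the pair of spots and covers neither culture nor hybridisation. ZNF17 had a level of -1.01 on NC, 1.12 on KD1 and 0.79 on KD2. Its change was 2.13 ± 0.23 in KD1 (4.38-fold) and 1.80 ± 0.23 in KD2 (3.48-fold). After the subtraction for GC and brightness, ZNF616 stood at 1.87 and 1.91, and ZNF17 at 2.03 and 1.83. Each was read by a single probe.

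The next members by mean change, among those above background on all arrays, were ZNF776, ZNF627, ZNF160, ZNF121, ZNF805, ZNF426, ZNF460 and ZNF823. ZNF776 went from 0.76 on NC to 2.32 on KD1 and 2.07 on KD2, and its further probe also gave 1.21 and 0.98 as changes. ZNF627 went from 0.40 to 2.04 and 1.53, a change of 1.64 ± 0.21 in KD1 and 1.13 ± 0.21 in KD2. In each of these genes both knockdown arrays lay above NC.

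ZNF160, described as a repressor of TLR4, went from 0.40 on NC to 1.82 and 1.72. Its brightest probe had the low GC content of 26.7%, and its second detected probe gave changes of 0.24 in KD1 and 0.75 in KD2, so the probes of ZNF160 disagree on the size in KD1. ZNF121, whose protein binds MYC, went from -0.35 on NC to 0.89 and 0.83. ZNF805 had levels of -1.89, -0.86 and -0.56, and its second probe gave 0.48 and 1.07 as changes.

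ZNF426 had levels of -0.22 on NC, 0.64 on KD1 and 1.19 on KD2, so KD2 stood higher than KD1. ZNF460 had -2.27, -0.85 and -1.47. ZNF823 had -0.98, 0.22 and 0.01. Another background correction, normexp, made these changes smaller. It gave 1.75 for ZNF616 in KD1, and 1.39 and 1.08 for ZNF17 in KD1 and KD2. In KD1 it left ZNF460 at 0.45, ZNF805 at 0.37, ZNF823 at 0.55 and ZNF426 at 0.54, short of 1.5-fold, and in KD2 ZNF460 at 0.17 and ZNF823 at 0.47.

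**Figure D3:**
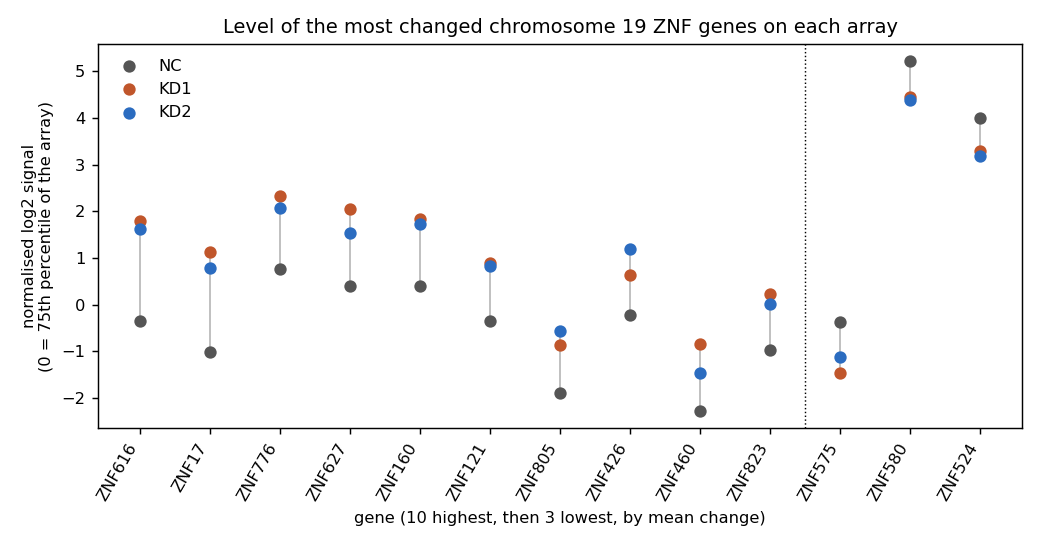
Normalised log2 signal (vertical axis, 0 is the 75th percentile of the array) of the 10 members with the highest and the 3 with the lowest mean change past 1.5-fold in both knockdowns (horizontal axis), with 1 point per array and no error bars. NC is the lowest point for the first 10 genes and the highest for ZNF575, ZNF580 and ZNF524. Levels of different genes come from different probes and are not to be compared.

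Members lower in both knockdowns were few. The rule asked for up to 10 such members above background on all arrays, and it found 3. ZNF575 had levels of -0.37 on NC, -1.46 on KD1 and -1.13 on KD2, a change of -1.09 ± 0.24 and -0.76 ± 0.23. ZNF580 had 5.21, 4.44 and 4.39, a change of -0.77 and -0.82. ZNF524 had 3.99, 3.28 and 3.19, a change of -0.71 and -0.80. Their probes had GC contents of 55%, 55% and 60%. After the subtraction for GC and brightness, ZNF580 stood at -0.39 and -0.49 and ZNF524 at -0.42 and -0.57, short of 1.5-fold, while ZNF575 stood at -0.80 and -0.71. With the arrays centred on spike-in probes, ZNF580 was at -0.15, ZNF524 at -0.10 and ZNF575 at -0.47 in KD1. With normexp ZNF575 was at -0.35 in KD2 and ZNF524 at -0.54 in KD1.

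Some members were read on some arrays only. ZNF599 was above background on NC alone, with a level of -0.77, and was at least 4.67-fold lower in KD1 and at least 4.23-fold lower in KD2. The extraction error of these changes was 1.46 log2 units in each knockdown. Its other probes were not above background on any array, NC included, so this difference rests on 1 probe. ZNF506 was above background on KD1 alone, with a level of -1.42, at least 2.46-fold higher than NC. This bound of 1.30 log2 units lies within its extraction error of 1.46. ZNF556 was above background on KD2 alone, with a level of -0.89, at least 3.54-fold higher than NC, a bound of 1.82 with an extraction error of 0.91. ZNF506 and ZNF556 were each read on 1 knockdown array and not on the other.

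Genes of the family with known roles gave unlike values. ZNF304, a KRAB zinc finger protein, was not above background on NC and had levels of -0.80 on KD1 and -1.30 on KD2. It was at least 3.78-fold higher in KD1 and at least 2.66-fold higher in KD2. ZNF274, which recruits TRIM28 and SETDB1 to the ends of ZNF genes, had 0.21 on NC, 0.84 on KD1 and 0.89 on KD2, a change of 0.63 and 0.69. ZNF473, a component of histone pre-mRNA processing, had -1.40, -0.53 and -0.63, a change of 0.87 and 0.77.

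ZNF765 stood 1.22 above NC in KD1 and 0.57 in KD2. ZNF350, a partner of BRCA1, had changes of 0.40 and 0.59, and ZNF675, a binder of TRAF6, had 0.44 and 0.54. ZNF420, a repressor of p53 target genes, changed by 0.03 and -0.11, and ZNF480 by -0.16 and -0.13, both within the extraction error of their spots. The retrotransposon repressors ZNF91 and ZNF93 were near background. ZNF91 was above it on KD1 alone at -2.14, and ZNF93 on KD2 alone at -2.62, so neither gives a comparison between NC and both knockdowns. ZNF649 was above background on KD1 alone at -2.73. ZNF331, ZNF382, ZNF568 and ZNF671 were not above background on any array.

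KD1 and KD2 gave similar values for most members. Between them 17 of 170 members were past 1.5-fold (10%), against 18.7% of 19544 genes, and the robust SD of their difference over the 143 members above background on all arrays was 0.32, against 0.38 for all such genes. The share was 9.59% of 219 ZNF genes elsewhere, with a robust SD of 0.29. For the other genes of chromosome 19 these values were 12.7% of 1020 and 0.28, so the closeness was not particular to the members. Of the 17, KD1 was the higher array for 11 and KD2 for 6. This count depends on the scaling, with 42 under median centring, 50 under spike-in centring and 5 under normexp. Among members above background on all arrays, those furthest apart were ZNF320, ZNF329, ZNF226, ZNF30 and ZNF530. ZNF320 had -0.61 on NC, 0.29 on KD1 and -0.63 on KD2, so KD1 alone stood away from NC, but its second probe gave changes of 0.54 and 0.40. ZNF329 had 1.56, 0.18 and 1.05, the lowest level being on KD1, and its probe has a GC content of 73.3%. The second probe of ZNF329, with 35% GC, went the opposite way, with changes of 1.10 and 0.51, and the mean over probes was -0.14 and 0.0003, so the direction of ZNF329 depends on the probe. ZNF226 had 2.55, 2.67 and 1.92, so only KD2 differed from NC by 1.5-fold. Its second probe gave 0.07 and 0.03, and the mean over probes in KD2 was -0.30, short of 1.5-fold. ZNF30 had -1.18, -0.92 and -1.65, with a second probe that changed by 0.00 and -0.60. ZNF530 had -0.58, -0.76 and -0.03. In the brightest probes of both genes neither knockdown passed 1.5-fold against NC.

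Along the chromosome, all 247 genes with a usable probe were cut into clusters wherever neighbouring probes lay more than 1 Mb apart. This gave 16 clusters, of which 8 held at least 5 measured members, 158 members in all, and these are called blocks 1 to 8 in order along the chromosome. Members named for their place in a block beyond those above were chosen after their values were seen. The median change of each block is given with that of the genes of other kinds that lie within its ends.

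Block 1, from 7.09 to 9.87 Mb (hg19), held 14 measured members and had the highest median in KD1. Its median was 0.66 in KD1, with 8 of 14 higher and 0 lower, and 0.51 in KD2, with 6 of 13 higher and 1 lower. The 45 other genes between its ends had a median of -0.14 in KD1, with 1 higher. In KD2, 44 such genes had a median of -0.18, with 4 higher. ZNF121 and ZNF426 are in this block, and ZNF317, at 3.50 on NC, 4.30 on KD1 and 4.42 on KD2, had both knockdowns above NC. ZNF414 was an exception, with a change of -0.32 in KD1 and -0.82 in KD2 and a probe of 50% GC.

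Block 2, from 11.6 to 12.7 Mb, held 17 measured members, with a median of 0.32 in KD1 and 0.53 in KD2. Here 5 of 16 members were higher in KD1 and 8 of 17 in KD2, with 0 lower in either. The changes of all 17 in KD2 lay between 0.0005 and 1.13, but only 11 of the 17 were above background on all 3 arrays. The rest were not above background on NC and entered through the knockdown arrays, so their changes are bounds that could fall little below 0. Among these are ZNF700, ZNF844 and ZNF442, counted as higher in KD2, and ZNF700 also in KD1. ZNF627, ZNF823 and ZNF791 led it, ZNF791 with -0.20 on NC, 1.02 on KD1 and 0.73 on KD2. Block 2 held only 8 other measured genes, with medians of 0.06 and 0.02.

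Block 3, from 19.8 to 24.3 Mb, held 24 measured members. Its median was 0.45 in KD1 and 0.52 in KD2, with 6 of 23 and 5 of 21 members higher and 0 lower. In KD2, 20 of 21 had a change above 0. ZNF506, counted as higher in KD1, and ZNF93, above 0 in KD2, were not above background on NC. The other genes within it had medians of -0.30 (n = 16) and -0.10 (n = 18). This is the block whose probes share runs of bases. The 13 members tested in KD1 that share such runs had a median of 0.52, and the 10 that do not had 0.30. In KD2 these medians were 0.52 (n = 13) and 0.40 (n = 8). ZNF254, the last member of the block, went from 3.92 on NC to 4.44 on KD1 and 4.40 on KD2. Its probe shares such runs with probes of 8 other gene names. Its further probes above background on all arrays gave changes of 0.34 and 0.66 in KD1, and of 0.40 and 0.13 in KD2.

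Blocks 4 and 5 had the lowest medians in KD2. Block 4, from 35.04 to 35.45 Mb, held 5 measured members, with medians of 0.26 in KD1 and -0.22 in KD2, and includes ZNF599. The 3 other genes within it had medians of -0.18 and -0.26. Block 5, from 36.7 to 38.2 Mb, held 12, with medians of 0.15 and -0.10, 2 members higher in KD1 and 1 in KD2. ZNF585B was the member of block 5 past 1.5-fold in both, with -2.0 on NC, -1.06 on KD1 and -1.28 on KD2. The other genes within block 5 had medians of 0.46 (n = 8) and 0.32 (n = 9), above those of its members, the reverse of the other blocks.

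Block 6, from 44.0 to 45.6 Mb, held 16 measured members, with medians of 0.39 and 0.36. In KD1, 7 of 16 were higher and 1 lower, and in KD2, 4 of 15 higher and 2 lower. The 24 other genes within it had medians of -0.13 and 0.00. ZNF227 had -1.88 on NC, -0.43 on KD1 and -1.15 on KD2. ZNF180, ZNF112 and ZNF45 were higher in both as well, with changes of 1.34 and 0.75, 1.24 and 0.72, and 1.00 and 0.99. The second probes of ZNF112 and ZNF45 gave 0.03 and 0.14, and -0.03 and 0.17, so their changes rest on the brightest probe. ZNF575 and ZNF226 are the lower members of the block.

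Block 7, from 52.1 to 54.0 Mb, held 26 measured members around ZNF616, with medians of 0.34 and 0.32. In KD1, 7 of 25 were higher and 1 lower, and in KD2, 7 of 25 were higher and 0 lower. The other genes within it had medians of -0.22 (n = 10) and 0.00 (n = 11). The 10 members nearest to ZNF616, 5 on each side, had smaller changes, with 0 higher in KD1 and 2 in KD2. They ranged from -0.85 to 0.58 in KD1 (n = 9, median 0.11) and from -0.33 to 0.60 in KD2 (n = 10, median 0.06). ZNF766, the next measured member beyond ZNF616, had 2.36 on NC, 2.43 on KD1 and 2.65 on KD2. On the other side the nearest was ZNF841, not above background on NC, with bounds of 0.583 in KD1, just short of 1.5-fold, and -0.06 in KD2. ZNF613, the furthest of the 5 on that side, had 0.55, 0.66 and 0.22. The members higher in both within this block, ZNF160, ZNF83, ZNF468 and ZNF175, lie further away. The second probe of ZNF83 gave -0.15 and 0.21, and that of ZNF468 gave 0.28 and 0.48, none past 1.5-fold.

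Block 8, from 56.0 to 59.0 Mb, held 44 measured members including ZNF17. Its medians were 0.14 and 0.17, with 14 higher and 5 lower in KD1 and 14 higher and 3 lower in KD2. The other genes within it had medians of 0.03 (n = 29) and 0.05 (n = 30). Cut at gaps of 0.5 Mb, the block splits into a pair of unlike groups. From ZNF628 to ZNF667, 10 members with probes of 52.5% median GC had medians of -0.19 and -0.17, with 0 higher and 2 lower in KD1 and 0 higher and 3 lower in KD2. From ZNF264 to ZNF446, 34 members with a median GC of 40.8% had medians of 0.34 and 0.42, with 14 higher in each knockdown and 3 and 0 lower. After the subtraction for GC and brightness the medians of the first group were -0.02 and 0.02, and those of the second 0.28 and 0.40.

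The 10 members nearest to ZNF17 included several with a higher signal. Of the 10, 5 were higher in KD1 and 5 in KD2, with medians of 0.57 and 0.62. These were ZNF460, ZNF304, ZNF547, ZNF548 and ZNF416, of which ZNF304, ZNF547 and ZNF548 were not above background on NC. ZNF548, the neighbour just before ZNF17, had -1.79 on KD1 and -1.89 on KD2, and was at least 0.87 and 0.77 log2 units above NC. ZNF773 and ZNF550, on the other side, changed by -0.14 and 0.04, and by -0.19 and 0.14. The brightest probe of ZNF550 has 53.3% GC. Its other probe, with 35% GC and not above background on NC, was at least 1.21 and 0.72 log2 units higher. The value of ZNF550 thus depends on the probe. Over all clusters, Spearman's rho between the change of a member and that of the next member of its cluster was 0.22 in KD1 (151 pairs) and 0.35 in KD2 (150 pairs), and 0.17 and 0.31 after the subtraction for GC and brightness. This describes pairs on the same arrays, some of which share probe bases.

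**Figure D4:**
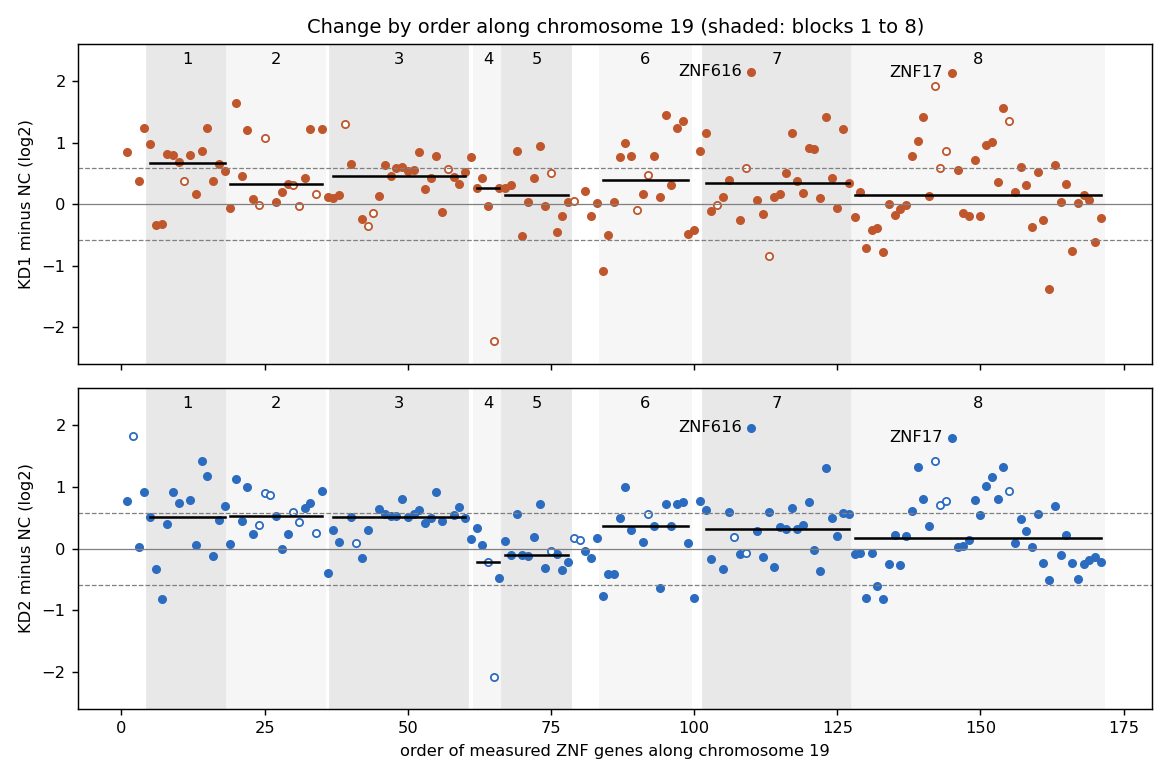
Log2 change against NC (vertical axis) of each measured member in its order along chromosome 19 (horizontal axis), for KD1 (top) and KD2 (bottom). Shading marks blocks 1 to 8, black lines their medians, dashed lines 1.5-fold, and open circles changes that are bounds because 1 array was not above background. ZNF616 and ZNF17 stand above their blocks, the medians of blocks 1 to 3 lie between 0.32 and 0.66, and those of blocks 4 and 5 in KD2 lie below 0.

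The promoters of the members were read from RefSeq windows of 250 bases before to 50 after each annotated start (GRCh38.p14). Windows were found for 148 of 171 members, 171 windows in all. They held a median of 20 CpG dinucleotides, against 14 over all 35116 windows and 21 over those of protein-coding genes. The sequence CCGGAA, the core bound by ETS factors, was present on either strand in 50.9% of member windows, against 17.2% of all windows and 21.2% of protein-coding ones. Its longer form CCGGAAGT, which overlaps the core, was present in 20.5%, against 4.14% and 5.34%. The 38 copies of the longer form in members, in 35 genes, had a median position of -18.5 from the start, and 33 of 38 lay at most 100 bases before it or after it. The share with the NRF1 motif was 9.36% (5.78% of all windows), with the CRE TGACGTCA 4.68% (1.85%), with the YY1 motif ATGGCGGC 5.26% (3%) and with the E-box CACGTG 5.85% (7.26%). The letters of the motifs were set with the data in hand.

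The last 100 bases before the start are shown for ZNF616 and ZNF17, and for ZNF776, ZNF805 and ZNF460, those of the 10 highest members that hold CCGGAAGT in this stretch, with CCGGAA or its complement TTCCGG in capitals.
ZNF616 (chr19:52139939-52140038, minus): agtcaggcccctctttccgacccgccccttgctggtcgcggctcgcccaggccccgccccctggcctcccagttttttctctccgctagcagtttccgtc
ZNF17 (chr19:57411061-57411160, plus): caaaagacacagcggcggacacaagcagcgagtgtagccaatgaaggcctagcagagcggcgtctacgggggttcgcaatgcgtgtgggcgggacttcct
ZNF776 (chr19:57746715-57746814, plus): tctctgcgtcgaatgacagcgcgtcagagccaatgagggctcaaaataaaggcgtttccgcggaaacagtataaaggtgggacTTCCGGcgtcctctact
ZNF805 (chr19:57240532-57240631, plus): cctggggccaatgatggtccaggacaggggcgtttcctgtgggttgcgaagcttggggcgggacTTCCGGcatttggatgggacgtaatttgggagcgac
ZNF460 (chr19:57279882-57279981, plus): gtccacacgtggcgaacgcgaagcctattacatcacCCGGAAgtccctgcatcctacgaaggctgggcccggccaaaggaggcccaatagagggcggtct
These are coordinates of GRCh38.p14, not of the hg19 build of the probes. ZNF616 holds CCGGAA elsewhere in its window, and ZNF17 has neither ETS form in its window.

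Among members with the longer ETS form a larger share had a higher signal. In KD1, 17 of 35 members with CCGGAAGT were higher (48.6%) and 3 lower, with a median of 0.42, against 30 of 108 without it (27.8%) and 4 lower, with a median of 0.29. In KD2, 15 of 35 were higher (42.9%), with a median of 0.50, against 29 of 111 (26.1%), with a median of 0.21. The median probe GC was 41.7% in both classes, and after the subtraction for GC and brightness the medians were 0.38 against 0.24 in KD1 and 0.53 against 0.22 in KD2. Among other measured genes with a window, those with CCGGAAGT had a median of 0.06 (n = 935) and those without of 0.00 (n = 9391) in KD1, and the medians in KD2 were -0.06 (n = 932) and -0.07 (n = 9430). The NRF1 motif went the other way in members, with 2 of 16 higher in each knockdown (12.5%) and medians of 0.02 and 0.01. Without it 35.4% and 32.3% were higher, with medians of 0.33 and 0.36. Median probe GC was 45% with it and 41.7% without. After the subtraction its medians were 0.09 and 0.14, against 0.29 and 0.39. With the CRE, 5 of 8 members were higher in KD1 and 4 of 8 in KD2, against 31.1% and 29% without it. With the E-box 3 and 1 of 9 were higher, and with the YY1 motif 3 of 8 and 2 of 9. Whether any factor binds these windows was not measured.

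Genes for the silencing that KRAB zinc finger proteins direct were read from a list of 25, all above background on all 3 arrays. In KD1, 7 of 25 were higher, against 13.2% of all genes, and 3 lower, against 12.8%, with a median of 0.12. In KD2, 2 were higher, against 9.56%, and 5 lower, against 10.7%, with a median of 0.07. Values below are of the brightest probe, and further probes above background on all arrays are given for the genes named.

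TRIM28, the corepressor that KRAB boxes bind, had the lowest changes of the list. NC read it at 6.57, KD1 at 5.44 and KD2 at 5.65, a change of -1.14 ± 0.20 and -0.92 ± 0.20, so 45.5% and 52.7% of the NC signal was left. After the subtraction for GC and brightness it stood at -0.86 and -0.66, and with spike-in centring at -0.52 in KD1. TRIM28 itself lies on chromosome 19, at 59.1 Mb, beyond the end of block 8, and was read by 1 probe. SETDB1, the H3K9 methyltransferase it recruits, had 5.07, 5.14 and 4.52, a change of 0.07 in KD1 and -0.56 in KD2. Its further probes gave 0.02 and -0.36 in KD1 and -0.23 and -0.49 in KD2. ATF7IP, the partner of SETDB1, changed by 0.14 and 0.18, and by -0.49 and 0.06 in its second probe.

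The brightest probes of the HP1 genes CBX1, CBX3 and CBX5 lay between -0.12 and 0.31 in both knockdowns. A second probe of CBX5 gave -0.75 and -0.51, and a second of CBX1 gave -0.67 and -0.40, while a further CBX1 probe gave 0.39 and 0.16. Among other H3K9 methyltransferases, SUV39H1 changed by -0.81 and -0.90 and EHMT2 by -0.44 and -0.71, while SUV39H2 changed by 1.14 and 0.52 and EHMT1 by 1.09 and 0.55. The probes of SUV39H1 and EHMT2 have 55% GC, and those of SUV39H2 and EHMT1 have 45% and 43.3%. The further probe of SUV39H1 gave -0.43 and -0.41, and those of EHMT1 gave 0.20 and 0.12 in KD1 and 0.02 and -0.01 in KD2, so the difference of EHMT1 rests on 1 probe. ATRX, a remodeller found at ZNF gene clusters, changed by -0.59 and -0.81, by -0.58 and -0.90 in its second probe and by 0.44 and -0.24 in a further probe. Its histone chaperone partner DAXX changed by -0.14 and -0.30.

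The highest changes of the list were those of MORC3, an ATPase of retroelement silencing, which had 0.74 on NC, 2.31 on KD1 and 1.86 on KD2. KIAA1551, now named RESF1, a regulator of SETDB1-dependent silencing, had 2.18, 2.95 and 3.09. FAM208A (TASOR) of the HUSH complex gave no single direction, with 1.02 and 0.48 in its brightest probe and -1.06 and -0.84 in the other. Its partner PPHLN1 gave -0.11 and 0.09 in the brightest probe and 1.02 and 0.86 in the other, and MPHOSPH8, with 1 probe, gave -0.01 and -0.16. HDAC1 changed by 0.84 and 0.25, DNMT1 by 0.72 and 0.56, and SMARCAD1 by 0.27 in KD1 and -0.69 in KD2, with 0.21 and -0.67 in its second probe.

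**Figure D5:**
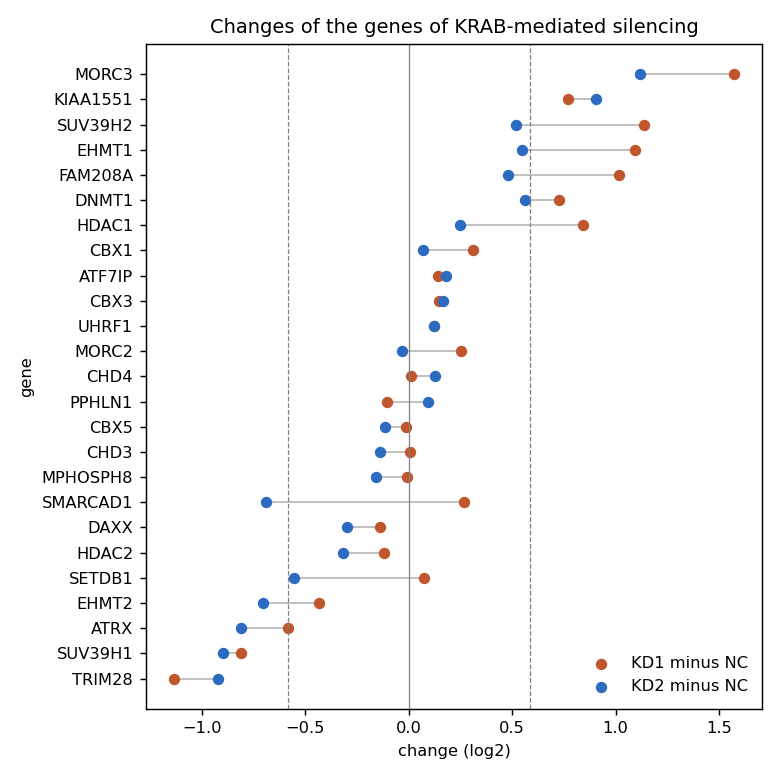
Log2 change against NC (horizontal axis) of the 25 genes of the silencing list (vertical axis), with 1 point per knockdown for the brightest probe and no error bars. Dashed lines mark 1.5-fold. TRIM28, SUV39H1 and ATRX lie at the low end in both knockdowns and MORC3 and KIAA1551 at the high end.

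Of the 171 members, 70 had more than 1 probe. For 35 members, 37 further probes were above background on all arrays beside the brightest one. The change of the further probe had the same sign as that of the brightest in 27 of 37 cases in KD1 and in 27 of 37 in KD2, with a median absolute difference of 0.42 and 0.36. The further probes, which took no part in choosing the level of the gene, had medians of 0.48 in KD1 and 0.40 in KD2. Of the 16 further probes whose brightest partner was past 1.5-fold higher in KD1, 13 had a change above 0 and 4 passed 1.5-fold. Of 11 such probes in KD2, 11 had a change above 0 and 6 passed. Among all 37 further probes, 14 were past 1.5-fold higher in KD1 and 12 in KD2, and 1 was lower in each. A further probe thus passed no more often in KD1 where its brightest partner did, though it did so in KD2. The medians and counts of further probes have no share of the further probes of all genes beside them and are not adjusted for GC. They therefore do not show whether the members differ from other genes.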

How the data were processed

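Per the labels, total RNA of HCT116 cells was labelled with Cy3 and hybridised to Agilent arrays, 1 for NC, 1 for KD1 and 1 for KD2. All arrays lay on 1 slide and in 1 scan. The authors deposited scanner output in which Agilent Feature Extraction 10.7.1.1 had turned each spot into a background-corrected intensity (gProcessedSignal), with its error, without scaling across arrays. A deposited table of the same intensities, 1 per probe, served as an alternative. Probe positions are in hg19.

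Spots marked as non-uniform or population outliers were left out (which removed 130 probes), log2 values of repeated spots were averaged per probe, and the 75th percentile of each array was subtracted. Probes without a gene name (1507) entered no comparison. The brightest probe on chromosome 19 represented each member. A gene was counted when above background on at least 1 array compared, with the lowest signal well above background as the floor elsewhere. The threshold was 1.5-fold, as in the study's methods. No p-value was computed. With 1 array a group, precision is limited by that number.

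The members and all gene lists were chosen with earlier results of these data known. Genes named were PRMT1, ZNF616 and ZNF17, the members with the 10 highest and 10 lowest mean changes past 1.5-fold in both knockdowns, the 5 furthest apart between KD1 and KD2, the 5 members on each side of ZNF616 and ZNF17, members with a known role, and the silencing list; others named in the blocks were chosen after their values were seen. ZNF611 of the known-role list was not on the array as a chromosome 19 gene. Of the members, 169 of 171 symbols matched a RefSeq gene table (GRCh38.p14), from which promoter windows were taken. Counting was tested on simulated data. The alternatives were normexp (offset 50), quantile, median, detected-probe and spike-in scaling (8 E1A probes), the series matrix, other filters and probe rules, a fold of 2, wider names and a gap of 0.5 Mb. The software was limma 3.58.1 under R 4.3.3 for normexp and, for all else, pandas 2.3.3 with numpy 2.4.6 and matplotlib 3.10.9 on Python 3.11.15.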

Additional observations from a re-analysis of the deposited data

Results flagged for a closer look

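ZNF578, a member of block 7, moved in opposite directions past 1.5-fold in the knockdowns. Its level was -2.15 on NC, not above background on KD1, and -1.55 on KD2, so it was at least 1.80-fold lower in KD1 and 1.51-fold higher in KD2, and KD1 minus KD2 was -1.44 or lower on the log2 scale, a bound. The difference was not tested, each side being 1 array near background.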

How the results depend on the processing

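No paired analysis was possible because each group has 1 array. The median of the members relative to all genes ranged over the alternatives from 0.19 to 0.38 in KD1 and from 0.22 to 0.40 in KD2. The lowest values came from normexp. Median, detected-probe and spike-in centring and the series matrix only shift each array by a constant, which cannot change this difference. Their values were those of the main setting, so its direction was open to change only under the other alternatives. With normexp, 32 members were higher and 5 lower in KD1, 16 higher and 3 lower in KD2, 5 apart between KD1 and KD2, and the difference in median between members with and without CCGGAAGT was 0.14 in KD2. With spike-in centring, which moved the median of all genes by 0.62 in KD1 and 0.29 in KD2, 126 were higher and 2 lower in KD1 (98.4% of those called were higher, against 86.9%), 87 higher and 1 lower in KD2 (98.9%, against 86%), 50 were apart, and 18 silencing genes passed in KD1. Median centring moved all genes by 0.10 and -0.15 and gave 42 apart and 33 higher and 11 lower in KD2 (75% higher). At 2-fold, 23 were higher and 3 lower in KD1, 12 and 1 in KD2, 4 apart, and 5 and 1 silencing genes passed. Without filter or floor, 18 were lower in KD1, 16 in KD2 and 35 apart. With only genes above background on both arrays, 11 were apart, and with every probe on its own 28 probes were, and 11 probes of silencing genes passed in KD2. The mean over probes gave a CCGGAAGT difference of 0.25 in KD1. After the GC and brightness subtraction, 4 were lower in KD1 and 5 in KD2. The causes were not tested. Dim members, near the floor, are the least certain.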
